A study of Oryctolagus cuniculus with 20 samples.

Results

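TPM1, TPM2 and CALD1 are the 3 genes described here, out of 23669 genes in the deposited table. They are thin filament genes chosen by their graft and control levels in rabbit artery, which did not share the large decrease of most other contractile genes, so those values are given below as a description, with no test. Each of the 3 is listed under 1 gene identifier with 1 transcript row (TPM1, ENSOCUG00000014122; TPM2, ENSOCUG00000010198; CALD1, ENSOCUG00000008127), and all 3 were among the 8657 genes that reached 1 FPKM (fragments scaled to transcript length and to the mapped fragments of the library) in at least 4 libraries. The sum per gene and the value per transcript row are therefore the same number, and which isoform a row stands for is not given in the sources used here.

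The study moved the common carotid artery of the rabbit (Oryctolagus cuniculus) into a vein and sequenced total RNA from whole vessel. Each of the 5 groups has 4 libraries. They are the graft at 14 days after surgery, the graft at 30 days, the opposite unoperated carotid artery at 14 days, the same at 30 days, and the unoperated external jugular vein. Every sample, the unoperated vessels included, also carries a treatment label for transplantation and a cell line label, HASMC, which does not match whole rabbit tissue, and the strain, age and sex of the animals are not given. Replicates are labelled biological, but nothing ties a library to an animal, so p-values measure the spread between these libraries.

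In smooth muscle the thin filament is an actin polymer with tropomyosin lying along its groove and caldesmon bound to both. Tropomyosin steadies the filament and sets which other proteins can reach it, and caldesmon holds back the actin-activated myosin ATPase until calcium-calmodulin or phosphorylation relieves it. TPM1 and TPM2 encode the alpha and beta tropomyosin chains, and both genes, like CALD1, are spliced into muscle and non-muscle products. A heavy caldesmon marks differentiated smooth muscle and a light caldesmon occurs in most cells, so a level per gene does not separate contractile from cytoskeletal product.

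Smooth muscle markers were present in all groups and lowest in the day 14 grafts. ACTA2, the smooth muscle actin, averaged 7170 FPKM ± 115 (SD, n = 4) in the day 14 control artery and 6347 ± 980 in the day 30 control artery, against 641 ± 146 and 1401 ± 166 in the grafts of those days and 2878 ± 176 in the vein. MYH11, the smooth muscle myosin heavy chain, averaged 29.1 FPKM in the day 14 control artery and 1.21 in the day 14 graft. Some genes abundant in vessel wall were listed near 0 in all groups, among them DES (at most 0.173 FPKM as a group mean) and COL3A1 (0.175 to 0.395 FPKM, beside 575 to 3487 FPKM for COL1A2), so a low listing in this table can be a failed estimate. These were chosen after their values were seen. The summed FPKM per library ran from 327806 to 671582, and read depth is unknown. The 4 day 14 control libraries lay closer together than any other group, with a median SD over genes of 0.0733 on the log2 scale against 0.135 to 0.324 in the other groups. In each other group 1 library (graft day 14 replicate 3, control day 30 replicate 2, graft day 30 replicate 4, vein replicate 4) lay within a median of 0.0879 or less of a weighted mean of the other 3, so results were also computed without these libraries and with the day 14 controls as 1 sample.

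TPM1 was higher in every graft library than in any unoperated vessel. It was listed at 7.36, 7.74, 8.68 and 7.25 FPKM in the day 14 control arteries and at 15.8, 24.0, 21.7 and 24.3 FPKM in the day 14 grafts. At day 30 it was listed at 13.3, 14.7, 15.4 and 14.6 FPKM in the control arteries and at 19.8, 25.9, 25.2 and 24.3 FPKM in the grafts. The control and graft libraries did not overlap on either day, and replicate 1 was the lowest graft on both days. The ratio of means was 2.77 at day 14 and 1.64 at day 30, and the log2 differences, here and below on the log2(FPKM + 1) scale, were 1.34 and 0.67. Because the choice of genes used this contrast, nothing is read from it. For reference, graft and control libraries did not overlap for 50.1% of all genes at day 14, 33.9% with the graft higher, and for 34.5% at day 30, 23.3% with the graft higher.

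Between the control days TPM1 rose by 0.82 (SE 0.124, 95% interval 0.561 to 1.08, limma adjusted p = 0.000433), with every day 30 library above every day 14 library, as for 12.8% of all genes, and it alone of the 3 genes was called in that comparison, in which 10.7% of all genes were called, 6.28% as higher. The control libraries also entered the choice of genes, through the graft comparison. Some markers of other cells also differed in the same comparison. The fibroblast markers COL1A2 (0.90, limma adjusted p = 0.00133), FAP (0.86) and THY1 (0.77) and the endothelial VWF (0.75) rose. The nerve markers CDH19 (13.2 FPKM at day 14 and listed at 0 at day 30) and PRPH (-1.83) fell. In all, 3 of 12 tested fibroblast markers and 1 of 9 endothelial markers were called, as higher. Of 7 nerve markers 2 were called, as lower, and of 8 macrophage markers 0. The fibroblast marker POSTN (13.1 and 11.9 FPKM) and the endothelial TIE1 (0.705 and 0.43 FPKM) had lower means at day 30. CDH19 and PRPH passed the filter only through the day 14 controls, so their fall follows from it. The part of all these markers in the TPM1 value was not tested. With the day 14 controls taken as 1 sample the TPM1 value was 0.82 but the adjusted p was 0.182, and only 18 genes were called at all. Between the graft days TPM1 did not pass the test, at 0.15 (95% interval -0.108 to 0.416, limma adjusted p = 0.442), in a comparison that shares the graft libraries with the choice of genes and calls 16.3% of all genes.

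The vein held TPM1 at 11.2, 14.5, 12.2 and 13.2 FPKM, with a mean between those of the control days. These values lay above all day 14 control libraries, as they did for 30.0% of genes, and overlapped the day 30 control libraries. Against both control days together the difference was 0.24 (SE 0.108, 95% interval 0.0136 to 0.467, limma adjusted p = 0.091), and none of the 3 genes was called in that comparison with all libraries, against 37.1% of all genes. TPM1 was called there with the same libraries under a replicate block (limma adjusted p = 0.0349), with library weights (0.0117) and with only the compared groups in the fit (0.0272). The block took vein replicate numbers from the sample titles, which differ from the numbers in the vein library names. It may therefore tie veins to the wrong arteries. Taken apart, which was chosen after seeing the data, the vein was 0.65 above the day 14 controls (limma adjusted p = 0.000494, 36.5% of genes called) and -0.17 from the day 30 controls (limma adjusted p = 0.332, 29.8% called). The control libraries entered the choice of genes, and a low control value raises both the graft and the vein difference. The vein p-values of all 3 genes are therefore not independent of that choice. Both grafts lay above every vein library, with ratios of means of 1.68 at day 14 and 1.86 at day 30, a description that uses the graft values. For 21.8% of genes at day 14 and 19.6% at day 30 all graft libraries lay above all vein libraries.

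TPM2 values overlapped between all 5 groups. It was listed at 13.8, 26.4, 23.1 and 18.6 FPKM in the day 14 control arteries and at 16.9, 22.7, 22.3 and 19.8 FPKM in the day 14 grafts. At day 30 the control arteries had 25.0, 23.5, 17.2 and 23.6 FPKM and the grafts 17.9, 17.1, 16.9 and 20.5 FPKM. The vein had 23.7, 17.8, 14.1 and 16.1 FPKM. All pairs of groups overlapped, and the group means lay between 17.9 FPKM ± 4.13 (SD, n = 4) in the vein and 22.3 ± 3.47 in the day 30 control arteries.

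The ratio of graft to control means for TPM2 was 0.997 at day 14 and 0.812 at day 30, log2 differences of 0.02 and -0.28. The median of all tested genes stood at 0.258 and 0.178 in the same comparisons, so TPM2 lay at percentiles 38 and 20.4 of all genes. Scaling the libraries by median of ratios brought those medians to 0.0278 and 0.0219 and TPM2 to -0.26 and -0.47, so the sign at day 14 depends on the scaling. For the other comparisons the TPM2 intervals, on FPKM as deposited, were -0.571 to 0.0872 for vein against control arteries (limma adjusted p = 0.247, but a value of -0.42 with 0.0432 after median-of-ratios scaling), -0.24 to 0.521 between the control days (0.703) and -0.541 to 0.22 between the graft days (0.595). TPM2 varied most within the day 14 controls, with a coefficient of variation of 26.7%, against 1.61% for ACTA2 in the same libraries.

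CALD1 was the most abundant of the 3. It was listed at 56.1, 54.7, 53.2 and 44.4 FPKM in the day 14 control arteries and at 94.9, 119.9, 121.8 and 128.7 FPKM in the day 14 grafts. At day 30 the grafts had 165, 134, 109.5 and 135 FPKM. The day 30 control arteries had 40.4, 51.5, 82.3 and 0.42 FPKM, and the last of these, replicate 4, stands apart from every other library. That library held 3 genes under 1 FPKM among 1384 that reached 20 FPKM in each of the other 3 libraries of its group, namely CALD1, IER3 and a gene with no name, and the number over all 20 libraries ran from 0 to 9, so an isolated low listing was not particular to it. No log value of CALD1 that includes it was free of it, and each is given with and without.

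The graft and control libraries of CALD1 did not overlap on either day, with the graft higher, as for 33.9% of all genes at day 14 and 23.3% at day 30. The ratio of means was 2.23 at day 14 (52.1 FPKM ± 5.31 against 116 ± 14.8, SD, n = 4) and the log2 difference 1.14. At day 30 the ratio was 3.11 and the log2 difference 2.59, or 1.26 without replicate 4, whose group then averaged 58.1 FPKM ± 21.7 (SD, n = 3). These are again the values that chose the gene.

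The vein held CALD1 at 71.0, 115, 92.5 and 77.1 FPKM, above all day 14 control libraries, as for 30.0% of all genes. On each day 3 of 4 grafts lay above every vein library. Against both control days the vein was 1.36 higher (SE 0.697, 95% interval -0.112 to 2.82, limma adjusted p = 0.142). Without control day 30 replicate 4 the difference was 0.69 (SE 0.174, limma adjusted p = 0.00492), smaller but past the threshold. Both fits use control libraries that entered the choice of genes. Between the control days CALD1 differed by -1.23 (limma adjusted p = 0.378), or by 0.10 without that library (0.842), and between the graft days by 0.22 (95% interval -1.48 to 1.91, limma adjusted p = 0.896), or by the same amount with an SE of 0.195 without it (0.493).

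**Figure D1:**
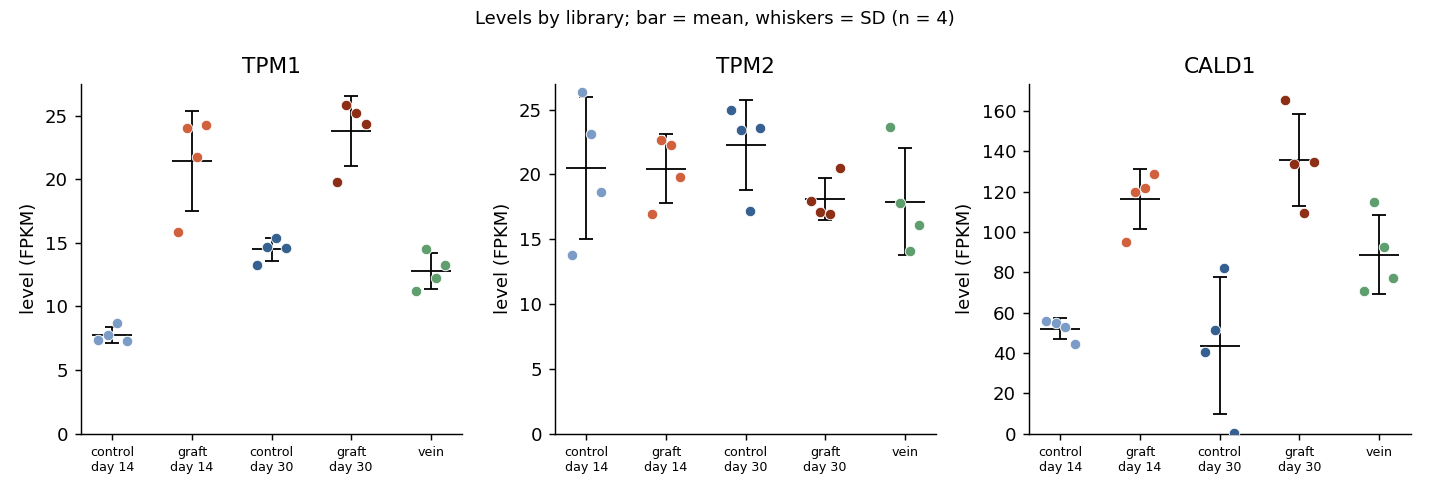
Levels of TPM1, TPM2 and CALD1 in FPKM (vertical axis, from 0, a separate scale in each panel) by group, with 1 point per library, the mean as a bar and the SD as whiskers (n = 4). TPM1 and CALD1 graft points lie above the control points of their day, TPM2 points overlap in all groups, and 1 day 30 control library has CALD1 at 0.42 FPKM.

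Ordered by mean FPKM, TPM1 ran from the day 14 control artery (7.76) through the vein (12.8) and the day 30 control artery (14.5) to the day 14 graft (21.5) and the day 30 graft (23.8). The vein and the day 30 control overlapped, as did the grafts of both days. The order for CALD1 was day 30 control (43.7), day 14 control (52.1), vein (88.9), day 14 graft (116) and day 30 graft (136), with overlap between every pair of neighbours except the day 14 control and the vein. Without the library at 0.42 FPKM the day 30 control mean was 58.1 FPKM, above the day 14 control. TPM2 has no order beyond its spread. Among all genes that passed the filter, CALD1 ranked at mean percentiles of 91.8 to 96.0 outside the day 30 controls, TPM2 at 77.8 to 82.4 and TPM1 from 64.2 in the day 14 controls to 82.2 in the day 30 grafts.

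The level of the 3 genes relative to smooth muscle actin is given next as a description, since the choice of genes that did not decrease with the contractile genes fixes a higher ratio in the grafts. TPM1 was 0.108% ± 0.00807 of the ACTA2 FPKM in the day 14 control artery and 3.38% ± 0.362 in the day 14 graft (SD, n = 4), then 0.233% and 1.73% at day 30, with 0.448% in the vein. TPM2 was 0.285% of ACTA2 in the day 14 control and 3.25% in the day 14 graft, then 0.353% and 1.30% at day 30, with 0.620% in the vein. CALD1 was 0.726% of ACTA2 in the day 14 control and 18.5% in the day 14 graft, then 0.761% and 9.72% at day 30, with 3.13% in the vein. The day 30 control mean of CALD1 (SD 0.641) includes replicate 4 at 0.00552%, beside 0.622%, 0.861% and 1.56% in replicates 1, 2 and 3. For every gene and day the graft libraries lay above the control libraries, and the vein mean lay between the controls and the grafts. These ratios inherit the ACTA2 decrease. In whole vessel, fewer cells of a type and less RNA per cell cannot be told apart.

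**Figure D2:**
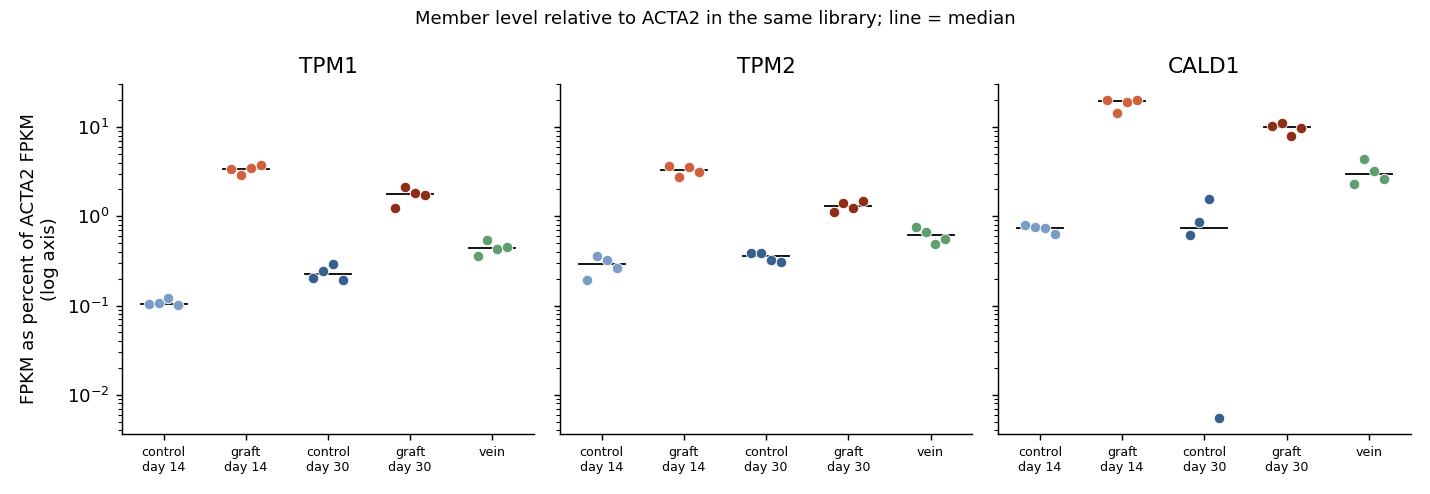
FPKM of TPM1, TPM2 and CALD1 as a percent of ACTA2 FPKM in the same library (vertical axis, log scale) by group, with 1 point per library and a line at the median. Graft points lie above control points in every panel, with vein points between the day 14 control and the grafts.

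The other tropomyosins changed the composition of the pool around TPM1 and TPM2. The table holds 5 tropomyosin genes, namely TPM1, TPM2, TPM4, TPM3 and LOC100349893, which is described as a tropomyosin alpha-3 chain. TPM4 and the alpha-3 chain genes encode chains of mainly cytoskeletal use. Their summed level was 51.4 FPKM ± 6.59 and 69.1 ± 6.56 in the day 14 and day 30 control arteries, 144 ± 41.2 and 131 ± 14.1 in the grafts, and 86.4 ± 2.95 in the vein (SD, n = 4). The share of TPM2 in that sum was 39.5% and 32.3% in the controls, 15.1% and 13.9% in the grafts and 20.6% in the vein, while the share of TPM1 lay between 14.9% and 21.1% in all groups.

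LOC100349893 made up most of the difference in the sum. It averaged 16.8 FPKM and 20.04 FPKM in the control arteries, 90.1 and 55.3 FPKM in the grafts and 45.6 FPKM in the vein. It was named after its values were seen. It rose in the grafts by 2.26 at day 14 (SE 0.245, limma adjusted p = 5.11e-07) and by 1.41 at day 30 (limma adjusted p = 0.000178), and was 1.28 higher in the vein than in the control arteries (limma adjusted p = 0.000119). TPM4 averaged 6.31 and 12.2 FPKM in the control arteries, 11.6 and 33.6 FPKM in the grafts and 9.98 FPKM in the vein. Like TPM1 it rose between the control days, by 0.83 (limma adjusted p = 0.0336), a call lost after quantile normalization (0.0578), with no filter, with the replicate block, without the mixture-like libraries, with the day 14 controls as 1 sample and in 5 of 8 fits that leave out 1 library, and unlike TPM1 it was also called between the graft days, at 1.45 (limma adjusted p = 0.000669). TPM3 averaged at most 0.335 FPKM in any group. Reads of near-identical tropomyosin genes can be split between rows, and how that was done is not given in the sources used here, so the shares are less certain than the sum.

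**Figure D3:**
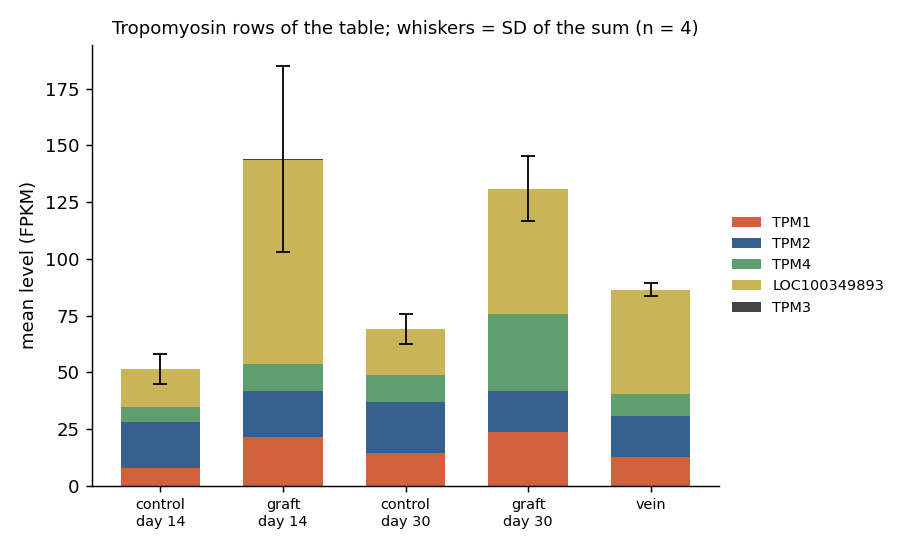
Mean FPKM (vertical axis, from 0) of the tropomyosin genes of the table, stacked for each group, with whiskers for the SD of the sum (n = 4). The TPM2 segment is alike in all groups, from 17.9 to 22.3 FPKM, while the LOC100349893 segment runs from 16.8 FPKM in the day 14 controls to 90.1 FPKM in the day 14 grafts.

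Most partners of the 3 genes on the filament fell in the grafts. The 3 genes were chosen for not sharing the fall of other contractile genes, and the partner list leaves them out. The counts and p-values of such genes in graft against control, here and for motor and anchoring genes, are therefore not independent of that choice. Of a list of 18 thin filament partners 14 were found by name and 10 passed the filter, while TMOD3 and SMTN were listed at 0 throughout. At day 14, 7 fell and 2 rose, with a median of -2.89 against 0.258 over all genes, and 53.5% of all genes were called, 36.5% higher and 17.0% lower. At day 30, 6 fell and 1 rose, with a median of -2.16 against 0.178, and 37.6% of all genes were called, 26.0% higher and 11.6% lower. ACTA2 fell by 3.51 at day 14 (SE 0.147, limma adjusted p = 5.91e-12) and by 2.17 at day 30. TAGLN, an actin-bundling protein of smooth muscle, fell by 3.70 and 2.14. LMOD1, a leiomodin that nucleates filaments, fell by 4.51 and 3.19, and TMOD1, a tropomodulin that caps the pointed end where tropomyosin binds it, fell by 3.02 and 2.75. SVIL, an actin- and myosin-binding membrane linker, fell by 2.85 and 2.18, and ACTG2, the gamma smooth muscle actin, fell by 2.93 and 2.18. All 6 were called on both days with limma adjusted p-values of at most 0.000226.

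The other 4 tested partners, named in full to complete the list, had smaller or positive differences. TPM4 rose by 0.76 at day 14 (limma adjusted p = 0.0121, but 0.0986 to 0.12 under 3 other scalings) and by 1.38 at day 30 (0.000176). TAGLN2, the transgelin of non-muscle cells, rose by 1.49 at day 14 (limma adjusted p = 0.0115, or 0.059 after TPM scaling), and at day 30 the value of 1.17 missed the threshold (0.0556). CNN3, the acidic calponin, differed by 0.19 at day 14 (limma adjusted p = 0.0751, with a negative sign under all 3 other scalings) and by -0.03 at day 30 (0.819). TMOD2 fell by 0.54 at day 14 (limma adjusted p = 0.0201) and differed by 0.23 at day 30 (0.372).

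**Figure D4:**
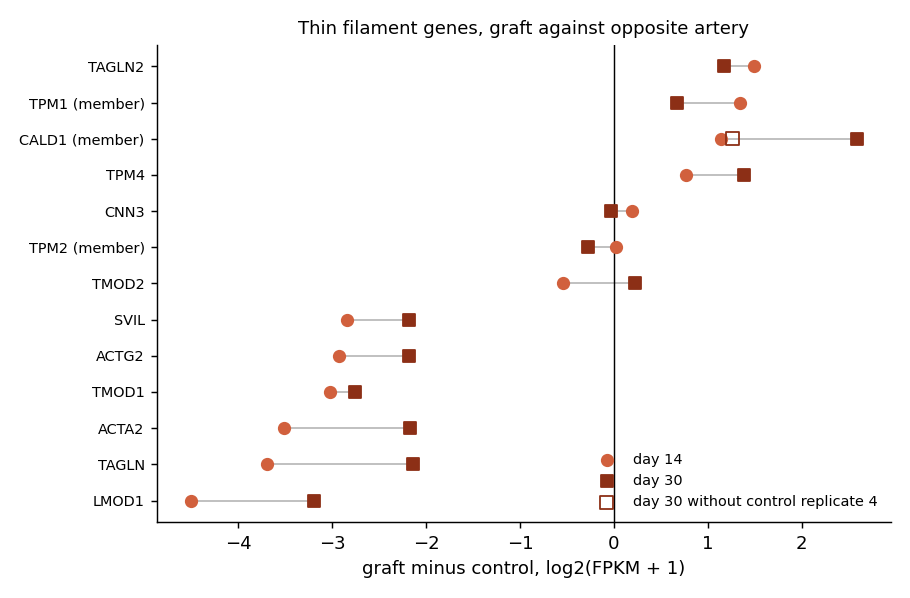
Graft minus control difference on the log2(FPKM + 1) scale (horizontal axis) for the 3 genes, labelled as members, and the 10 tested thin filament partners, with circles for day 14, filled squares for day 30 and an open square for CALD1 at day 30 without control replicate 4. The 6 lowest genes lie at -2.14 or below on both days, while TPM1 and CALD1 lie at 0.67 or above and TPM2 near 0.

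Between the graft days 6 of the 10 tested partners rose and none fell, with a median of 0.856 against -0.0402 over all genes, of which 8.01% rose. They were TPM4 (1.45), ACTG2 (1.29), ACTA2 (1.15, limma adjusted p = 6.97e-05), TAGLN (0.98), TMOD2 (0.93) and TMOD1 (0.79, limma adjusted p = 0.0182, or 0.0535 after quantile normalization). With only the graft libraries in the fit the number was 2. In the vein, TMOD2 (1.26) and CNN3 (0.49) were higher and ACTA2 (-1.22), SVIL (-1.32) and LMOD1 (-1.18) lower than in the control arteries, so 5 of 10 partners were called beside 37.1% of all genes.

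Motor and anchoring genes mostly fell, in comparisons where 17.0% of all genes were lower and 36.5% higher at day 14 (median 0.258) and 11.6% and 26.0% at day 30 (median 0.178). Of 15 tested myosin and myosin-regulating genes 10 fell and 2 rose at day 14 (median -1.66), and 9 fell and 2 rose at day 30 (median -1.22). MYH11 fell by 3.91 and 2.38, MYLK, the light chain kinase, by 3.08 and 2.22, and PPP1R14A, an inhibitor of the light chain phosphatase, by 3.58 and 2.44. The genes that rose were MYL12B, a non-muscle regulatory light chain, at 1.46 and 1.41, and MYH9, a non-muscle heavy chain, at 0.93 and 0.70, whose day 30 call was lost under 3 other scalings (limma adjusted p = 0.0847 to 0.213). Of 12 tested dense body and intermediate filament genes 11 fell and 1 rose at day 14 (median -2.06) and 10 fell and 1 rose at day 30 (median -1.71). SYNPO2, which binds alpha-actinin and filamin, fell by 4.21 and 2.17, and ACTN1, the alpha-actinin of dense bodies and non-muscle cells, rose by 1.62 and 0.91 (0.0753 after TPM scaling at day 30).

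Of 20 tested genes of cytoskeletal actin turnover 6 rose and 6 fell at day 14 and 6 rose and 7 fell at day 30. Those called, 12 and 13 of 20, stand beside 53.5% and 37.6% of all genes. The Arp2/3 complex subunits ARPC1B (3.18 and 1.78), ARPC3 (2.00 and 1.28) and ARPC2 (1.61 and 0.88) and the actin monomer binder TMSB10 (1.98 and 1.64) rose on both days. CFL2, a cofilin of muscle (-3.81 and -1.998), PFN2, a profilin (-1.20 and -1.85), and CORO1C, a coronin (-0.68 and -0.63), fell on both days, and were added after their values were seen.

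Splicing regulators of muscle exons were listed because TPM1, TPM2 and CALD1 are among their known targets. Of 8 tested genes 3 rose and 2 fell at day 14 and 1 rose and 2 fell at day 30, so 5 and 3 of 8 were called, near the 53.5% and 37.6% of all genes. RBPMS2 fell by 2.86 and 2.20 and RBPMS, which promotes smooth muscle exon choices, fell by 1.24 and 1.20. MBNL2 rose by 1.90 and 0.96 and MBNL1 rose by 0.72 at day 14 (limma adjusted p = 0.000738, or 0.0643 after quantile normalization). With 1 transcript row per gene, exon use of TPM1, TPM2 and CALD1 was not analysed here.

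Of 9 tested genes of the SRF and myocardin axis, which drives contractile genes, 2 rose and 4 fell at day 14 and 1 rose and 4 fell at day 30, so 6 and 5 of 9 were called beside 53.5% and 37.6% of all genes. SRF fell by 1.22 and 0.66 and FHL1 by 2.09 and 0.96. MYOCD, the coactivator myocardin, averaged 6.13 FPKM in the day 30 controls and at most 0.40 FPKM in any other group. It passed the filter only through the day 30 controls, so a difference from them follows from the filter. Its values, a fall of 2.32 in the day 30 grafts and a rise of 2.29 between the control days, are therefore a description. It is counted among the genes that fell at day 30. At day 14 it differed by -0.40 (limma adjusted p = 0.123), with both groups under 1 FPKM.

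Markers of other cells differed between the same groups. Summed fibroblast markers, 12 of 14 of which passed the filter, ran from 1352 to 1375 FPKM in the day 14 controls, 3635 to 4674 in the day 14 grafts, 1489 to 3046 in the day 30 controls, 4772 to 5459 in the day 30 grafts and 4285 to 5274 in the vein, and 7 of 12 rose in the grafts on each day, beside 36.5% and 26.0% of all genes, with DCN lower at day 14 (-0.66, limma adjusted p = 0.0118) and COL3A1 near 0 throughout. Of the 12, TNC averaged 7.24 and 2.58 FPKM in the day 14 and day 30 grafts and at most 0.66 FPKM in any other group. It passed the filter through the grafts, so a rise of TNC follows from it. Summed macrophage markers, 8 of 15 of which passed, ran from 14.6 to 16.7 FPKM in the day 14 controls, 362 to 585 in the day 14 grafts, 18.97 to 39.2 in the day 30 controls, 199 to 393 in the day 30 grafts and 76.3 to 117 in the vein, with CD68 at 0 in the controls and the vein and LAPTM5 at 0 throughout. Both sums were higher in the grafts than in the controls of the same day, as TPM1 and CALD1 were, and their part in those levels was not tested. Summed striated muscle markers, which also belong to tissues that express TPM1 and TPM2, ran from 489 to 651 FPKM in the control arteries and from 9.61 to 83.5 FPKM in the grafts and the vein. Only 5 of 23 passed, TCAP and TNNC1 leading, while the fast troponin TNNC2 and the light chain MYLPF were at 0 and MYH7, TTN and NEB near 0 in all groups. All 5 fell in the grafts on both days, where 17.0% and 11.6% of all genes were lower. TNNT2 and ACTN2 averaged at most 0.805 and 0.328 FPKM in any group outside the control arteries. They passed the filter only through those arteries, so their fall follows from it. The part of striated muscle in TPM1 and TPM2 levels was not tested. Summed endothelial markers, 9 of 11 of which passed, ran from 67.6 to 70.5 FPKM in the day 14 controls, 221 to 548 in the day 14 grafts, 82.4 to 187 in the day 30 controls, 527 to 673 in the day 30 grafts and 669.8 to 848.5 in the vein, with PECAM1 at 0 in all control arteries. Summed pericyte markers, 4 of 7 of which passed, ran from 3318 to 3385 FPKM in the day 14 controls, 211 to 350.3 in the day 14 grafts, 2004 to 3014 in the day 30 controls, 176 to 276 in the day 30 grafts and 99.5 to 133 in the vein, nearly all of it RGS5 in the control arteries. Summed nerve markers, 7 of 9 of which passed, ran from 66.1 to 78.5 FPKM in the day 14 controls, 5.36 to 32.3 in the day 14 grafts, 25.9 to 82.1 in the day 30 controls, 8.64 to 25.5 in the day 30 grafts and 36.8 to 49.6 in the vein. At day 14, 6 of 7 fell and MBP rose, where 17.0% of all genes were lower and 36.5% higher. At day 30, 4 of 7 fell, where 11.6% were lower. CDH19 and PRPH passed the filter only through the day 14 controls, so their fall follows from it. The part of these cells in the levels of the 3 genes was not tested.

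The genes whose pattern over the 20 libraries was most like each of the 3 were sought among 3888 named genes with a mean of at least 5 FPKM. Points share libraries and group differences, so the Pearson coefficients are a description. For TPM1 they were TNFRSF1B (r = 0.93), RFTN1 (0.92), TNFRSF21 (0.92) and TREX1 (0.92). TNFRSF1B and TNFRSF21 encode receptors of the tumour necrosis factor family and TREX1 a DNA exonuclease. TREX1 averaged 1.38 and 4.13 FPKM in the control arteries and 19.8 and 15.3 FPKM in the grafts. TPM1 itself had r = -0.78 with ACTA2, -0.03 with TPM2 and 0.35 with CALD1, the last being 0.82 over 19 libraries without control day 30 replicate 4.

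No gene followed TPM2 closely, the highest being FBXL17 (r = 0.58), BLCAP (0.57), SAR1B (0.56) and COPG1 (0.56), and its r with ACTA2 was 0.18. For CALD1 the 4 were PGM2 (r = 0.84), TBC1D2B (0.82), DNAJC2 (0.81) and B4GALT7 (0.78). Over 19 libraries without control day 30 replicate 4 they were TLR4 (0.91), ABCB1 (0.91), PNP (0.90) and RFLNB (0.90), with none in common, so the first set rests on that library. The r of CALD1 with ACTA2 was -0.57 over 20 libraries and -0.82 over 19.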

How the data were processed

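Libraries of total RNA were sequenced on a NovaSeq X Plus, per the labels' protocols. The authors deposited FPKM per transcript row; fastp, HISAT2, StringTie, RSEM and DESeq2 are named, without versions or roles, in the submitters' processing notes, and the genome build and the strand setting are not given in the sources used here. FPKM keeps no read depth, so no count test was run. Rows were summed per Ensembl gene. Genes under 1 FPKM in all but 3 or fewer libraries were dropped, leaving 8657 (of which 6907 had a symbol in the table, 834 took one from RefSeq of assembly mOryCun1.1 through their gene number, and 916 had none). Then log2(FPKM + 1), which understates changes of low genes, was fitted with limma 3.58.1 (R 4.3.3; trended eBayes, 5 group means over 20 libraries, two-sided), with Benjamini-Hochberg adjustment over all kept genes and a threshold of 0.05. Vein libraries were matched to samples by library name.

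The 3 genes, the lists and the tests were chosen with earlier results of these data known. The text names the 3 genes, up to 4 genes per list and comparison by adjusted p, ACTA2, MYH11 and TAGLN, and the 4 genes closest to each of the 3 by Pearson r; exceptions are stated. Alternatives were the pseudocount, filter, scaling, library weights, groups in the fit, a replicate block, the highest row, left-out libraries and the day 14 controls as 1 sample. The fit was tested on simulated data. Gene sequences were not used here.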

Additional observations from a re-analysis of the deposited data

Results flagged for a closer look

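Of 36 genes of the lists named beside the 3 genes, 12 had a graft effect that differed between the days in limma's interaction test, given here as the day 30 difference minus the day 14 difference on the log2(FPKM + 1) scale. The share over all genes was 12.9%, and the 36 were named for their differences, so the count is not read against it. The effect was less negative at day 30 for SYNPO2 (2.04, limma adjusted p = 0.00121), TAGLN (1.56, 0.00705), MYH11 (1.53, 0.00962), ACTA2 (1.34, 0.000595), FHL1 (1.13, 0.0014), MYLK (0.86, 0.0195) and VIM (0.60, 0.00248). It was less positive at day 30 for ARPC1B (-1.40, limma adjusted p = 0.000239), MBNL2 (-0.95, 0.024), ARPC2 (-0.73, 0.0114) and ARPC3 (-0.72, 0.011). It was more negative at day 30 for MYOCD (-1.92), counted among the 12. That gene passed the filter only through the day 30 controls, so its value is a description. The 3 genes were not put to this test, because it uses the contrast that chose them.

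Dixon's test found no outlying library in 40 groups of 4 on the FPKM scale. On the log2 scale TPM2 in the day 30 controls passed the critical value, with a gap of 0.832 of the range and replicate 3 the low one, and CALD1 there, with replicate 4 at 0.42 FPKM, stayed just under it at 0.8286. Chance alone passes it in about 1 group in 20.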

How the results depend on the processing

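TPM1, vein against control arteries, passed the threshold with only the compared groups in the fit (0.24), with library weights (0.22) and with the replicate block (0.24, adjusted p = 0.0349), and against the control days apart it was 0.65 and -0.17. TPM2 in that comparison reached -0.42 after median-of-ratios scaling (adjusted p = 0.0432). Leaving out 1 library gave 0.18 to 0.30 for TPM1, -0.38 to -0.14 for TPM2 and 0.69 to 1.67 for CALD1. Between the control days TPM1 kept 0.82 with the day 14 controls as 1 sample, and 0.81 when the mixture-like libraries were left out as well (adjusted p = 0.821), missing the threshold both times with fewer samples; its adjusted p over 21 alternatives ran from 2.9e-07 to 0.821, and its leave-one-out values from 0.80 to 0.87. There the leave-one-out values ran from -0.026 to 0.27 for TPM2 (lowest without control day 14 replicate 1) and from -1.86 to 0.10 for CALD1. Between the graft days TPM1 passed with library weights (0.14, adjusted p = 0.043) and TPM2 was 0.037 after TPM scaling; the cause was not tested.

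Graft minus control values moved with scaling by median of ratios, TPM and quantiles, at day 14 to 1.07, 1.11 and 1.07 for TPM1 and 0.84, 0.89 and 0.86 for CALD1. At day 30, median of ratios and TPM gave 0.48 and 0.42 for TPM1 and -0.47 and -0.53 for TPM2. These scalings lower the median of all genes.

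Counts of all genes called were 3214 (vein), 929 (control days), 1412 (graft days), 4634 and 3253 (graft against control, day 14 and day 30). With the day 14 controls as 1 sample they were 2002, 18 and, at day 14, 2470. Without the mixture-like libraries they were 437 (control days) and 412 (graft days), and with both changes 1067, 4, 85, 1623 and 1720. Library weights gave 2963, 5299 and, at day 30, 5082. The graft days gave 855 after TPM scaling and 321 with only the graft libraries. Leave-one-out counts ran from 612 to 931 between the control days (lowest without control day 14 replicate 2) and from 905 to 1644 between the graft days (lowest without graft day 30 replicate 1).

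Thin filament partners called in the vein numbered 9 with library weights. Between the control days, TPM4 alone was called, and the number was 0 with no filter, after quantile normalization, with the replicate block, with the day 14 controls as 1 sample, without the mixture-like libraries and with both, 2 after TPM scaling, 4 with only the compared groups, 6 with library weights and 0 to 1 with 1 library left out. Between the graft days it was 2 with only the graft libraries, 2 without the mixture-like libraries and 1 with both changes.

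Whether replicate numbers pair the libraries is not settled, because low correlations cannot exclude a shared animal. Same-numbered graft and control libraries deviated with correlations from -0.107 to 0.127 at day 14 and from -0.18 to 0.063 at day 30. On each day 1 of 4 grafts correlated best with its own number. The control arteries of day 14 and day 30 were sampled on different days, and no label ties them by animal. Their correlations ran from -0.0285 to 0.059, and 3 of 4 libraries correlated best with their own number. A best match at such low values is therefore not read as pairing. The replicate block, which ties same-numbered libraries across all groups, gave 4573 calls for graft against control at day 14 and 3186 at day 30. Of 481 alternative values for the main results, 423 were counted as kept. For tested values that meant the same direction and the same side of the threshold. Graft minus control values counted as kept if they moved by less than the pooled within-group SD, and gene counts if they changed by a limited ratio. These limits are wide. CALD1 at day 30 counted as kept at 1.26 without control day 30 replicate 4, against 2.59. TPM2 at day 14 counted as kept at -0.26 after median-of-ratios scaling, against 0.02.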
